A study of Homo sapiens with 16 samples.

Results

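The *MYC* paralogs and the MAX network were represented by 10 genes, *MYC*, *MYCL*, *MAX*, *MXD1*, *MXD3*, *MXD4*, *MXI1*, *MNT*, *MGA* and *MLX*, of the 20162 protein-coding genes of the annotation. They were taken from a list of names, and each was measured over its gene body (hg19) with 10 kb on each side. The cells were BE2C, a human neuroblastoma line in which *MYCN*, the third *MYC* paralog, is amplified. CUT&Tag, in which an antibody tethers a transposase that tags the DNA beside a histone mark, was run for H3K27me3 and for H3K4me1. In the knockdown experiment, cells received siKDM6B33, an siRNA against the H3K27 demethylase KDM6B, or the control siRNA siCtrl. In the compound experiment, cells received GSK-J4, which inhibits the KDM6 demethylases, at 2.5 µM, or 0.1% DMSO. Every treatment lasted 72 h, and each of the 8 groups held 2 libraries, 16 in all. The knockdown rests on 1 siRNA in 1 cell line, and its depth cannot be read from histone marks. The study calls the paired libraries of a group biological replicates.

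MYC, MYCN and MYCL are basic helix-loop-helix leucine zipper transcription factors that bind E-box DNA as dimers with MAX. MXD1, MXD3, MXD4, MXI1, MNT and MGA compete for MAX and are mostly repressors, and MGA is also part of a Polycomb complex of the PRC1 class. MLX is the MAX-like partner of the glucose-sensing factors MLXIP and MLXIPL. H3K27me3 is laid down by Polycomb PRC2 and marks silent genes, and KDM6B removes it. H3K4me1 marks enhancers and the flanks of active promoters. Neuroblastomas with amplified *MYCN* are known for low *MYC* expression, so it was asked whether the H3K27me3 mark lay on *MYC* and *MYCL* in these cells, and how the mark differed after either treatment.

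Coverage is the percent of a gene window lying in islands, the broad regions called in a library, so it is a length per length and not a read count. The mean number of tags over a base in the genome background, which follows depth, was 0.0298 to 0.0539 for H3K27me3 and 0.0483 to 0.107 for H3K4me1, and after siKDM6B33 it was above both siCtrl libraries for both marks. GSK-J4 H3K27me3 replicate 1 stood apart, with islands in 40.3% of gene windows against 26.5% to 28.1% in the rest of the compound experiment. After siKDM6B33, H3K4me1 islands lay in 68.7% and 68.8% of gene windows, against 44.5% and 44.4% in siCtrl. The part that depth played in the results was not tested. With 2 libraries against 2, the exact two-sided permutation test cannot give a p below 0.333, so no difference here could pass 0.05. A gene is therefore described as higher or lower where both treated libraries lay above or below both controls, and such counts are set against the same count over all 20162 genes.

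**Figure D1:**
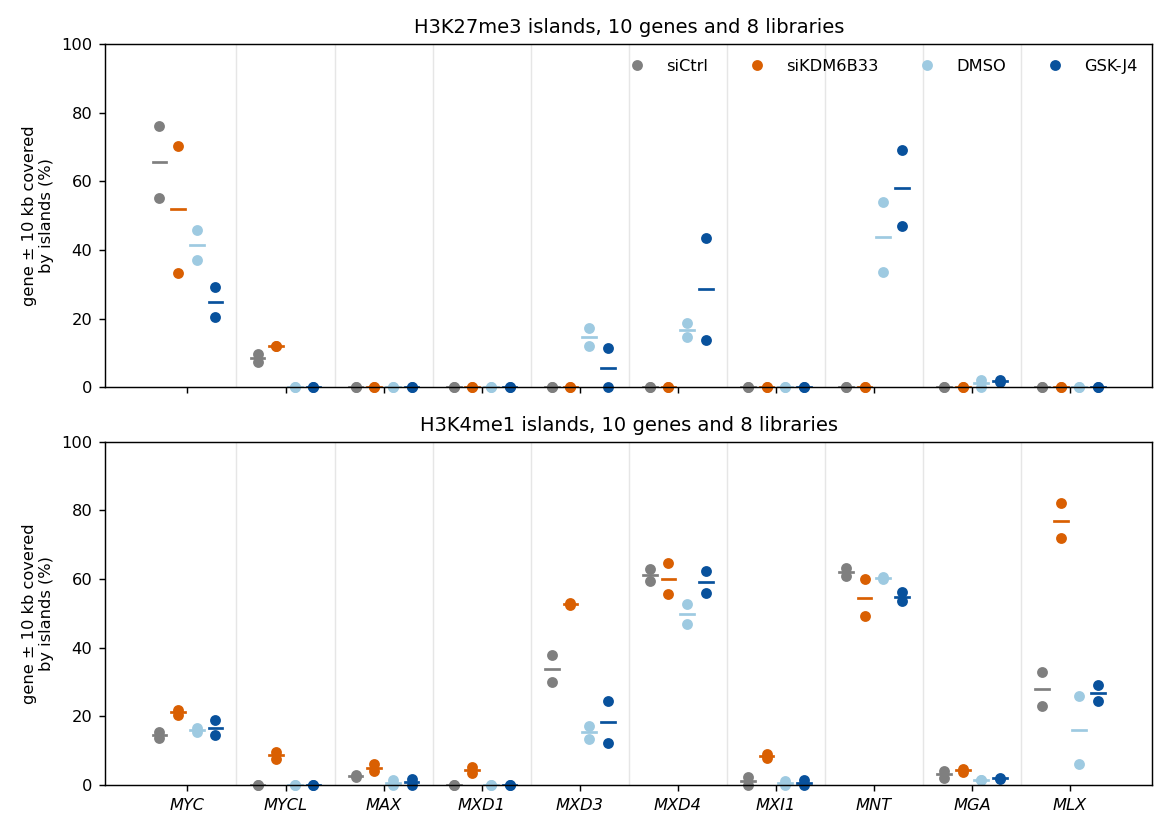
Percent of the gene window (body with 10 kb each side) covered by H3K27me3 islands and by H3K4me1 islands for the 10 genes, 1 point per library and a short line at the mean of each group of 2, with control and treated libraries of both experiments side by side. *MYC* has H3K27me3 coverage from 20.4% to 76.0% in all 8 libraries, *MYCL* at most 11.9% and in the knockdown experiment only, and *MNT*, *MXD4*, *MXD3* and *MGA* in the compound experiment only.

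Both *MYC* and *MYCL* had H3K27me3 islands, but to very different extents. *MYC* was marked in all 8 H3K27me3 libraries, in islands over its start that at most 19.9% of the islands of the library outscored. *MYCL* was marked in the 4 libraries of the knockdown experiment, in short islands near the floor of the lists, and in none of the 4 libraries of the compound experiment. Among all genes, 23.6% had an H3K27me3 island in the window in both siCtrl libraries and 14.9% had one within 1 kb of the canonical start, whereas of the 10 genes *MYC* and *MYCL* did on both counts. In both DMSO libraries the shares were 24.7% and 12.8% of all genes. There 4 of the 10 had an island in the window (*MYC*, *MXD3*, *MXD4*, *MNT*) and 2 had one at the start (*MYC*, *MXD3*).

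*MYC* lies on chromosome 8 from 128747680 to 128755197 on the plus strand, and its window held no start of another coding gene. H3K27me3 islands covered 76.0% and 55.2% of the window in siCtrl, 33.4% and 70.2% after siKDM6B33, 37.1% and 45.8% in DMSO, and 20.4% and 29.1% after GSK-J4. The same values in length were 20.9 and 15.2 kb, 9.20 and 19.3 kb, 10.2 and 12.6 kb, and 5.60 and 8.0 kb. The 2 kb around the canonical start were covered by 93.8% to 100% in every library. A stretch of 5.60 kb, from -0.876 to 4.72 kb relative to the start, lay in islands of all 8 libraries, so the libraries differed in how far the mark reached beyond it.

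The score of an island, the caller's sum over its windows, placed *MYC* high within each list. Its strongest island scored 2092 and 1809 in siCtrl, where 3.69% and 4.41% of the islands of the library scored higher. After siKDM6B33 it scored 1573 and 1493, with 3.24% and 3.52% of islands higher. In DMSO the scores were 1056 and 1065, with 6.19% and 6.50% of islands higher, and after GSK-J4 they were 472 and 415, with 10.6% and 19.9% higher. The lists behind these shares differed in length, with 7175 and 7398 islands in DMSO and 16676 and 8006 after GSK-J4. The island over the start was 5.60 to 18.8 kb long, and 2.07% to 44% of the islands of the library were wider, the highest share being that of GSK-J4 replicate 2. By coverage, 0.749% to 10.6% of all genes were covered as much as *MYC* in the same library.

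**Figure D2:**
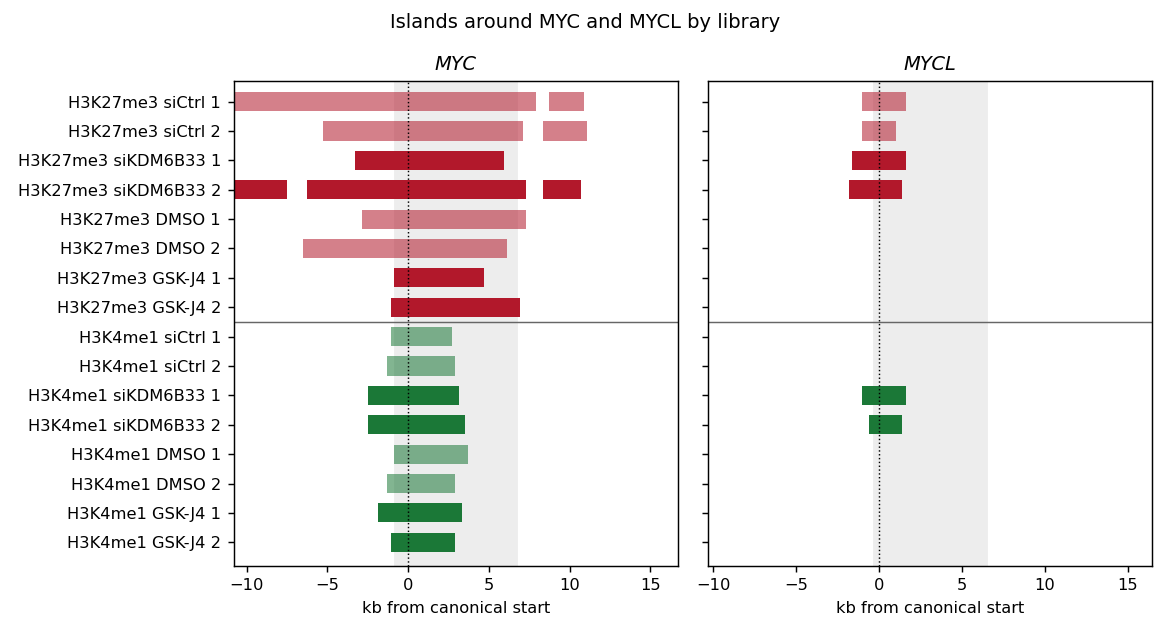
Islands of H3K27me3 (red) and H3K4me1 (green) around *MYC* and *MYCL*, 1 row per library, against the distance from the canonical start in kb, with darker bars for treated libraries, the gene body in grey and a dotted line at the start. The H3K27me3 islands of *MYC* share 5.60 kb over the start in all 8 libraries, and those of *MYCL* are 2.00 to 3.20 kb long and lie over its start in the knockdown experiment.

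Mean H3K27me3 coverage of *MYC* was 65.6% ± 14.7 (SD, n = 2) in siCtrl and 51.8% ± 26.0 after siKDM6B33, a difference of -13.8 percentage points (exact permutation p = 0.667). The groups overlapped, and without siKDM6B33 replicate 1 the difference was 4.58, so its sign rested on that library. In the compound experiment coverage was 41.4% ± 6.17 in DMSO and 24.7% ± 6.17 after GSK-J4, a difference of -16.7 (exact permutation p = 0.333, the smallest this design can give). Both GSK-J4 libraries lay below both DMSO libraries, and they were the libraries with the higher genome background, 0.0507 and 0.0371 against 0.0298 and 0.0338 tags. The difference was -12.4 without GSK-J4 replicate 1, the library that stood apart, and -16.7 when every library was trimmed to an equal covered length. The groups overlapped when coverage was taken by narrow peaks, at 0.818% and 1.22% in DMSO against 0.872% and 0.465% after GSK-J4, and within 1 kb of the start, where the difference was -3.10. That same trimming gave -24.2 for the knockdown, where both siKDM6B33 libraries then lay below both siCtrl libraries.

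Narrow peaks gave a sharper view of the same place, with the tag count at a summit solved from the fold and the p of the peak. A site in an intron 1651 bp after the start, 137 bp from another *MYC* start, was called in all 8 H3K27me3 libraries, and it was singled out after its values were seen. It held 28 and 27 tags in siCtrl, 27 and 20 after siKDM6B33, 20 and 12 in DMSO, and 7 and 7 after GSK-J4. Divided by the genome background of the library, these were 708 and 673, 501 and 378, 672 and 355, and 138 and 189. On that scale both treated libraries lay below both controls in each experiment, with a wide gap between the DMSO replicates, whereas over the whole window the compound groups overlapped by narrow peaks.

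*MYC* also had H3K4me1 islands in every library, over a shorter stretch. They covered 13.8% and 15.3% of the window in siCtrl, 20.4% and 21.8% after siKDM6B33, 16.7% and 15.3% in DMSO, and 18.9% and 14.5% after GSK-J4. Both siKDM6B33 libraries lay above both siCtrl libraries, by a mean of 6.54 percentage points (exact permutation p = 0.333), and the compound groups overlapped. The common stretch was 3.60 kb, from -0.876 to 2.72 kb relative to the start, and it lay inside the common H3K27me3 stretch. Of the H3K27me3 length, 4.20 kb in both siCtrl libraries, 6.00 kb in both siKDM6B33 libraries, 5.00 kb in both DMSO libraries, and 4.20 and 4.40 kb after GSK-J4 lay inside H3K4me1 islands of the same treatment. The part of the mark that lay outside H3K4me1 therefore varied most, from 1.40 to 16.7 kb. CUT&Tag was run on pools of cells with 1 antibody at a time, so both marks on the same allele and each mark in its own cells cannot be told apart.

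The promoter of *MYCL*, a paralog first found amplified in small-cell lung cancer, is printed because the H3K27me3 islands of this gene in BE2C lay over it and the sequence on both sides. *MYCL* lies on chromosome 1 from 40361100 to 40367928 on the minus strand. The 221 bases at chr1:40367592-40367812 (hg19, minus strand, 5′ to 3′), which end 3 bases before the canonical start and touch no annotated exon, read as follows, with no capitals because no E-box CACGTG was found.
MYCL promoter: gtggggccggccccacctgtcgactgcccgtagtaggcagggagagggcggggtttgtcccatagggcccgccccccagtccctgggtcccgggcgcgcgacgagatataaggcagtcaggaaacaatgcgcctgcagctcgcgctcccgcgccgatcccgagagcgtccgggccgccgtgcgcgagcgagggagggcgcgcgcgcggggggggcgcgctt
The whole 250 bases before the start held 35 CpG dinucleotides and were 74.4% G or C. Of 19510 coding promoters of that length, 8.41% held at least as many CpG, and the median was 18.

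H3K27me3 islands covered 9.69% and 7.45% of the *MYCL* window in siCtrl, 11.9% and 11.9% after siKDM6B33, and 0% in all 4 libraries of the compound experiment. The islands were 2.60, 2.00, 3.20 and 3.20 kb long and shared 2.00 kb, from -1.01 to 0.988 kb relative to the start. They were weak, with scores of 49.8, 59.0, 55.4 and 55.7 that 92.2%, 80.7%, 93.7% and 92.1% of the islands of their libraries exceeded. A single narrow peak with −log10 q of at least 2 was called, in siKDM6B33 replicate 2, with 6 tags at -152 bp from the start. Of the 4 marked libraries, 2 had at least 10% of the window covered.

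Mean H3K27me3 coverage of *MYCL* was 8.57% ± 1.58 (SD, n = 2) in siCtrl and 11.9% ± 0 after siKDM6B33, a difference of 3.35 percentage points (exact permutation p = 0.333), with both treated above both controls. At an equal covered length the siKDM6B33 islands were lost and the difference was -8.57, so the direction turned with the length of the lists. H3K4me1 islands were called at the same place after siKDM6B33. Its islands covered 0% and 0% of the window in siCtrl, 9.69% and 7.45% after siKDM6B33, and 0% in all 4 libraries of the compound experiment. In the 2 kb around the start these values were 0% and 0% against 100% and 80.6%. At an equal covered length the H3K4me1 islands of *MYCL* were lost as well, and the difference was 0. Of the H3K27me3 length, 0 kb in both siCtrl libraries and 2.60 and 2.40 kb after siKDM6B33 lay inside H3K4me1 islands.

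*MYCN* was unlike both paralogs. Islands of either mark covered 78.3% of its window in all 16 libraries, with summits of 168 to 854 tags, and at most 0.0553% of the islands of a library scored higher. Extra copies of the locus add tags for any antibody, so amplified DNA and a histone mark cannot be told apart there.

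H3K27me3 islands in the windows of some antagonists of MYC were called, in the compound experiment only. *MNT*, *MXD4*, *MXD3* and *MGA* had no H3K27me3 island in the 4 libraries of the knockdown experiment and had islands in 4, 4, 3 and 3 libraries of the compound experiment. In contrast, *MAX*, *MXD1*, *MXI1* and *MLX* had none in any of the 8. Over the gene body alone, H3K27me3 coverage of *MXD4* was 0% and 0% in DMSO and 45.2% and 0% after GSK-J4. That of *MGA* was at most 0.447%. Narrow H3K27me3 peaks with summits of 2 or 3 tags were called in knockdown libraries at each of these 8 genes except *MNT*. How many of all genes had such peaks was not counted. In the compound libraries narrow peaks were also called at *MAX*, *MXD1*, *MXI1* and *MLX*. Their strongest summits held 4 and 3, 6 and 3, 3 and 2, and 4 and 4 tags after GSK-J4, and at most 3 in DMSO. The siCtrl and DMSO libraries came from separate experiments and were not compared by a test.

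*MNT*, which encodes a widely expressed MYC antagonist, had the most. H3K27me3 islands covered 33.5% and 54.0% of its window in DMSO and 47.0% and 69.1% after GSK-J4. The means were 43.7% ± 14.5 and 58.1% ± 15.7 (SD, n = 2), a difference of 14.3 percentage points (exact permutation p = 0.667), and the groups overlapped. Without 1 library it was 3.24 (GSK-J4 replicate 2), 4.05 (DMSO replicate 1), 24.6 (DMSO replicate 2) or 25.4 (GSK-J4 replicate 1). The window of *MNT* was also rich in H3K4me1, with 63.2% and 61.0% in siCtrl, 59.9% and 49.1% after siKDM6B33, 59.9% and 60.5% in DMSO, and 53.5% and 56.2% after GSK-J4. All of the H3K27me3 length lay inside H3K4me1 islands in 3 libraries (12.4, 20.0 and 17.4 kb), and 20.6 of 25.6 kb did in GSK-J4 replicate 2.

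*MXD4* and *MXD3*, whose proteins are repressive MAX partners, had shorter islands. H3K27me3 covered 18.6% and 14.5% of the *MXD4* window in DMSO and 43.4% and 13.9% after GSK-J4, where the high value came from the library that stood apart. The difference was 12.1 percentage points (exact permutation p = 1.00) and -2.60 without that library. The stretch of *MXD4* marked in all 4 libraries ran from -10.0 to -5.17 kb relative to the start, the outer end of a window that also holds starts of *POLN*, *HAUS3* and ENSG00000290263. For *MXD3* the values were 17.3% and 12.1% in DMSO and 11.5% and 0% after GSK-J4, a difference of -8.95 (exact permutation p = 0.333), with both GSK-J4 libraries below both DMSO libraries by a gap of under 1 percentage point. At an equal covered length the groups overlapped, at 17.3% and 0% in DMSO against 11.5% and 0% after GSK-J4. Leaving out GSK-J4 replicate 2 gave -3.20, and leaving out replicate 1 gave -14.7. In the 2 kb around its start *MXD3* was covered by 100%, 100%, 100% and 0%. Its islands were weak, with scores of 94.9 and 100 in DMSO that 88.1% and 91.4% of the islands of their libraries exceeded. In GSK-J4 replicate 1 the score was 98.9, and 54.4% of islands scored higher.

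*MGA* was covered by 0% and 2.21% in DMSO and 1.40% and 2.21% after GSK-J4, which overlapped. A weak H3K27me3 summit lay 81 bp after its start in 5 libraries, with 2 tags in siCtrl replicate 1 and 3 in siKDM6B33 replicate 1, both DMSO libraries and GSK-J4 replicate 1. A taller summit lay 113771 bp after the *MGA* start and 308 bp from the start of the neighbour *MAPKBP1*, with no call in the knockdown libraries or DMSO replicate 1 and with 8 tags in DMSO replicate 2 and 10 and 8 after GSK-J4. H3K4me1 had a summit at that distant site in all 8 libraries, with 21 and 15 tags in siCtrl, 54 and 61 after siKDM6B33, 17 and 13 in DMSO, and 12 and 10 after GSK-J4. No H3K27me3 island touched the 2 kb around the start of *MGA* itself.

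**Figure D3:**
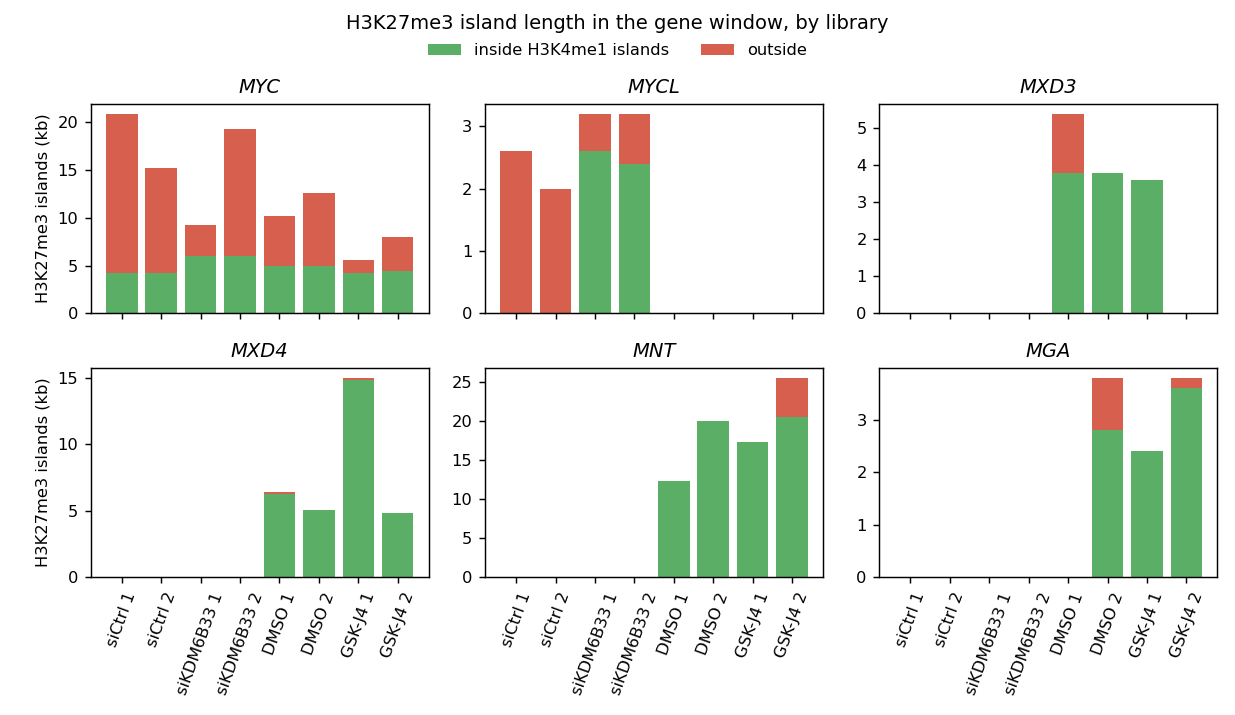
Length of H3K27me3 islands in the gene window in kb, by library, split into the part inside H3K4me1 islands of the same treatment (green) and the part outside (red), for the 6 genes with any H3K27me3 island. For *MYC* most of the length varies outside H3K4me1, while for *MNT* all of it lies inside in 3 of 4 compound libraries and *MYCL* has none inside in siCtrl.

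The overlap with H3K4me1 moved with the experiment across the genome. Of all H3K27me3 island length, 10.1% and 9.99% in siCtrl and 12.5% and 12.8% after siKDM6B33 lay inside H3K4me1 islands, against 60.1% and 58.4% in DMSO and 72.0% and 56.5% after GSK-J4. Of all H3K27me3 summits, 19.7% to 28.9% in the knockdown experiment and 50.1% to 53.4% in the compound experiment lay within 150 bp of an H3K4me1 summit. For *MNT*, 6 of 7 H3K27me3 summits in DMSO and 8 of 9 after GSK-J4 did. The part that this overlap played in the H3K27me3 calls on *MNT*, *MXD4*, *MXD3* and *MGA* was not tested.

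The strongest H3K4me1 summit of *MNT* in the siCtrl, siKDM6B33 and DMSO libraries was a site where both marks had summits in the compound experiment. It lay in an intron of the canonical transcript, 4299 bp after the start. The 151 bases centred on it at chr17:2299980-2300130 (hg19, minus strand, 5′ to 3′) hold 11 CpG and fall in an exon of an *MNT* transcript with no defined coding sequence. No part is in capitals.
MNT intron site: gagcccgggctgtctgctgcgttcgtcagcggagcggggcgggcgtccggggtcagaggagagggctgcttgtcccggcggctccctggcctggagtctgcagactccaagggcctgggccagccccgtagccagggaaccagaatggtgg
H3K4me1 had 71 and 77 tags there in siCtrl, 72 and 68 after siKDM6B33, 44 and 38 in DMSO, and 25 and 27 after GSK-J4. H3K27me3 was not called there in the 4 knockdown libraries and had 9 and 11 tags in DMSO and 22 and 12 after GSK-J4. Over the genome background, H3K4me1 was 774 and 786 in DMSO and 457 and 483 after GSK-J4, whereas H3K27me3 was 302 and 325 in DMSO and 434 and 323 after GSK-J4. The H3K4me1 groups were apart and the H3K27me3 groups overlapped. At another shared summit, 15257 bp after the start in a UTR exon, H3K4me1 had 27 and 24 tags in DMSO and 30 and 37 after GSK-J4, and H3K27me3 had 10 and 12, then 18 and 7. Both sites were chosen after their values were seen.

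**Figure D4:**
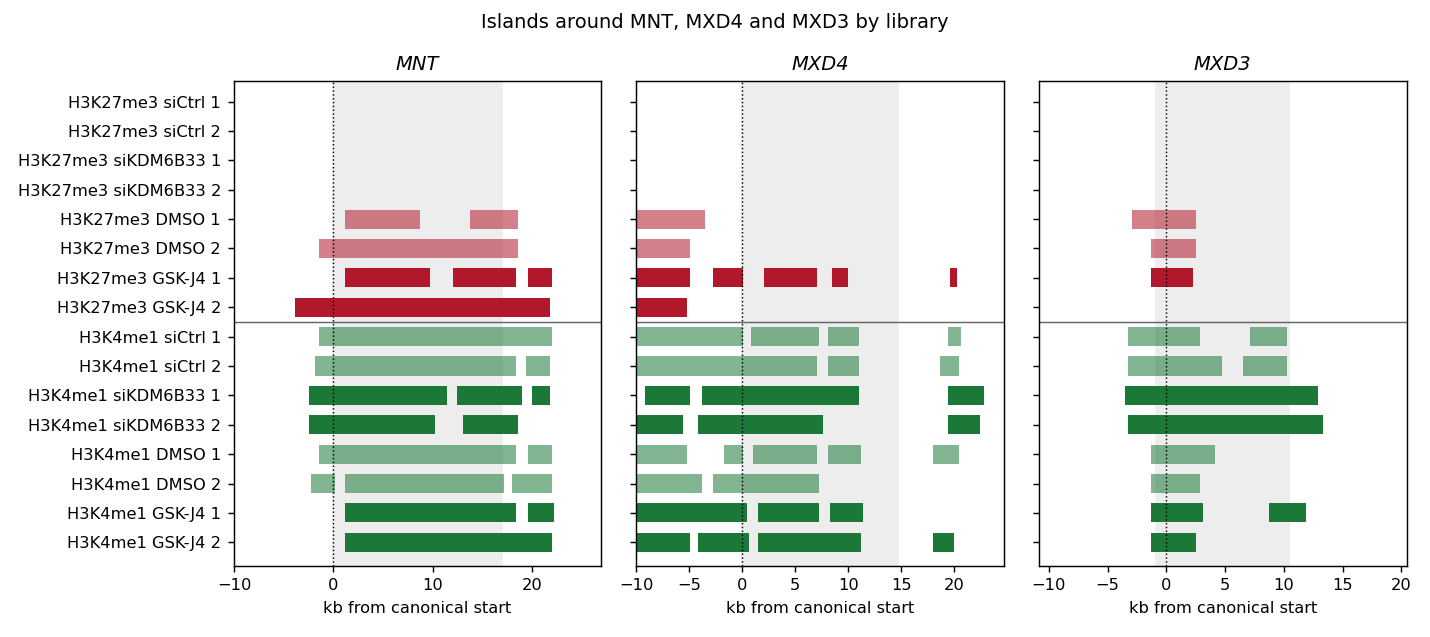
Islands of H3K27me3 (red) and H3K4me1 (green) around *MNT*, *MXD4* and *MXD3*, 1 row per library, against the distance from the canonical start in kb, with darker bars for treated libraries, the gene body in grey and a dotted line at the start. The red rows of the knockdown experiment are empty for all 3 genes, and the red bars of the compound experiment mostly fall on green ones.

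Read as counts, H3K27me3 gave few calls among the 10 genes. In the knockdown 1 of 10 was higher (*MYCL*) against 11.1% of all genes, and 0 were lower against 3.63%. In the compound experiment 0 were higher against 5.96% of all genes, and 2 were lower (*MYC* and *MXD3*) against 4.49%. The median difference of the 10 and of all genes was 0 in both experiments. Counts of this size on 10 genes are moved by 1 gene.

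H3K4me1 was more widely present than H3K27me3. An island lay in the window in both siCtrl libraries for 7 of the 10 genes, against 42.3% of all genes, and within 1 kb of the canonical start for 5 (*MYC*, *MXD3*, *MXD4*, *MNT* and *MLX*), against 22.1%. In both DMSO libraries these were 6 genes against 37.6%, and the same 5 at the start against 18.9%. *MNT* and *MXD4* had the highest coverage in every library of siCtrl and DMSO, *MXD3*, *MLX* and *MYC* followed, and *MAX*, *MXD1*, *MXI1*, *MGA* and *MYCL* were at 4.19% or below. The long windows of *MAX* (117 kb), *MXI1* (99.8 kb) and *MGA* (172 kb) lower their percentages.

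After siKDM6B33, H3K4me1 coverage was higher in both treated libraries for 7 of the 10 genes (*MYC*, *MYCL*, *MAX*, *MXD1*, *MXD3*, *MXI1* and *MLX*), against 48.0% of all genes. It was lower for 1, *MNT*, against 10.2%. A gene with no island in either group can be neither. Of the 14470 genes with an island, 9675 were higher and 2051 lower. The median difference was 5.42 percentage points over the 10, all of which had an H3K4me1 island in some library, 1.20 over all genes and 3.94 over the genes with an island. At an equal covered length 6 were higher, without *MYCL*, the *MAX* difference was 0.944 in place of 2.49, and *MXD4* joined *MNT* as lower. The *MAX* difference was also 1.37 without siKDM6B33 replicate 2. The *MNT* difference was -7.56, but -2.16 without siKDM6B33 replicate 2, -13.0 without siKDM6B33 replicate 1 and 0.556 by narrow peaks. *MLX* differed most, from 22.9% and 32.9% in siCtrl to 82.2% and 71.8% after siKDM6B33, a difference of 49.1 (exact permutation p = 0.333), in a window that also holds the starts of *COASY* and *PSMC3IP*. *MXD3* went from 30.0% and 37.7% to 52.4% and 53.0%, and its strongest summits after siKDM6B33, of 59 and 58 tags, lay 9296 bp after its start in a coding exon of *RAB24*.

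At 4 of the starts an H3K4me1 island was called after siKDM6B33 and not in siCtrl. Coverage of the 2 kb around the canonical start was 0% in both siCtrl libraries and, after siKDM6B33, 100% and 80.6% for *MYCL*, 100% and 98.3% for *MAX*, 98.0% and 100% for *MXD1*, and 100% and 78.1% for *MXI1*. *MAX* encodes the obligate partner of the network, and *MXD1* and *MXI1* encode MAX partners that oppose MYC. These 4 of 10 genes were higher at the start, a share near the 38.4% of all genes, and 0 were lower, against 1.24%. *MGA* was at 70.1% and 0% in siCtrl and 70.1% and 70.1% after siKDM6B33 and was not called. The 5 genes marked at the start in siCtrl had little or no room to be higher, since *MYC*, *MXD3*, *MNT* and *MLX* were at 100% and *MXD4* at 60.0% and 100%.

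The tallest summits behind these 4 calls differed between the genes. *MXD1* had the most tags, at a site at -502 bp from its start. H3K4me1 had 5 and 6 tags there in siCtrl and 34 and 32 after siKDM6B33, and 2, 4, 5 and 3 tags in the compound libraries. Over the genome background these were 55.4 and 70.7 in siCtrl and 318 and 304 after siKDM6B33. The siKDM6B33 values exceeded every other library on both scales, and the genome background itself was 0.107 and 0.105 tags after siKDM6B33 against 0.0902 and 0.0849 in siCtrl. H3K27me3 was called at this *MXD1* site in the compound experiment only, with 2 tags in DMSO replicate 1 and 6 and 2 after GSK-J4. After siKDM6B33 the other 3 genes had fewer H3K4me1 tags. There were 18 and 18 at 730 bp after the start of *MAX*, 10 and 13 at 3743 bp after that of *MXI1*, and 8 and 10 at -158 bp from that of *MYCL*. These sites were chosen after their values were seen.

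**Figure D5:**
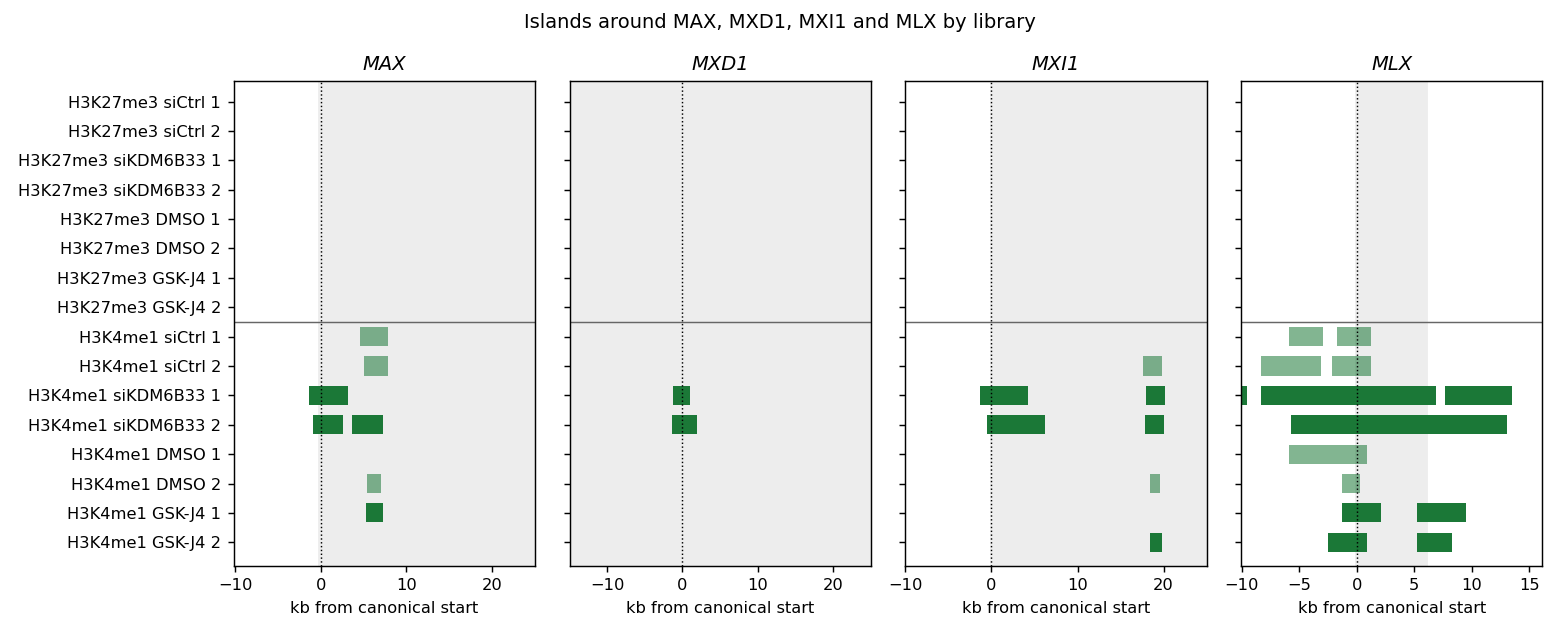
Islands of H3K27me3 (red) and H3K4me1 (green) around the canonical start of *MAX*, *MXD1*, *MXI1* and *MLX*, 1 row per library, against the distance from that start in kb, with darker bars for treated libraries, the gene body in grey and a dotted line at the start. In both siKDM6B33 libraries a green bar crosses the start of *MAX*, *MXD1* and *MXI1*, where both siCtrl libraries and all 4 compound libraries have none, and no red bar is present.

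In the compound experiment fewer genes stood apart. H3K4me1 coverage was higher after GSK-J4 for 2 of 10 genes, against 11.4% of all genes, and lower for 1, against 8.65%. *MXD4* was at 52.6% and 46.8% in DMSO and 56.0% and 62.4% after GSK-J4, a difference of 9.52 percentage points (exact permutation p = 0.333). *MGA* was at 1.51% and 1.51% against 1.86% and 1.98%, a gap of under 1 percentage point. *MNT* was lower, with a difference of -5.40 percentage points (exact permutation p = 0.333), which turned to 0.224 by narrow peaks. By islands the 2 kb around its start went from 100% and 57.7% in DMSO to 0% and 0% after GSK-J4. *MNT* was the 1 gene of the 10 that was lower at the start, against 4.36% of all genes, and 0 were higher, against 1.38%. *MYC* was at 16.7% and 15.3% in DMSO and 18.9% and 14.5% after GSK-J4 and overlapped.

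The promoters of the network differ in whether they hold the E-box CACGTG that MYC and MAX dimers bind. In the 250 bases before the canonical start, searched for CACGTG, which reads the same on both strands, 1 copy was found in each of *MAX*, *MXD4*, *MNT* and *MLX* and none in the other 6 genes. Of 19510 coding promoters, 7.87% held at least 1 copy. All but *MAX* are printed, being those whose E-box lies outside every annotated exon, 5′ to 3′ on the strand of the gene (hg19) with the E-box in capitals. They are *MNT* at chr17:2304399-2304604 (minus), *MLX* at chr17:40718868-40719089 (plus) and *MXD4* at chr4:2263837-2264086 (minus), and the first base of the E-box lies 193, 50 and 238 bases before the start.
MNT promoter: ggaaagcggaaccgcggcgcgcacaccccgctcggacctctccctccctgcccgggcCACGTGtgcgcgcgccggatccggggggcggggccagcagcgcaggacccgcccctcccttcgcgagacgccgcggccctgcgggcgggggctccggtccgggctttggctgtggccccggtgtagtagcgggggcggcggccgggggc
MLX promoter: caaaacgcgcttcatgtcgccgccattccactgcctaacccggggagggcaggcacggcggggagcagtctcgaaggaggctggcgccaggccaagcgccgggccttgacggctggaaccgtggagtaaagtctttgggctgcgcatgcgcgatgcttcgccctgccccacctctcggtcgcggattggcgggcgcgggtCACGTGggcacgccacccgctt
MXD4 promoter: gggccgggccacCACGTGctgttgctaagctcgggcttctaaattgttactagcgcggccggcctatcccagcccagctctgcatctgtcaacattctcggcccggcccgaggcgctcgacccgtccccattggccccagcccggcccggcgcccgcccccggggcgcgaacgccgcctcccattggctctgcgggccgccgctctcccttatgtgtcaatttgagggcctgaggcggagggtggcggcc
The starts of *MNT*, *MLX* and *MXD4* had an H3K4me1 island in both siCtrl and both DMSO libraries, and that of *MAX* had none in either. The starts of *MYC* and *MXD3*, with no CACGTG in the 250 bases, also had an H3K4me1 island in all of these libraries. A match to these letters is a description and not a bound site.

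Genes around the network were counted from lists of names. Of *MYCN*, *MLXIP* and *MLXIPL*, none was higher or lower for H3K27me3 after siKDM6B33 (11.1% and 3.63% of all genes) or GSK-J4 (5.96% and 4.49%), or for H3K4me1 after GSK-J4 (11.4% and 8.65%). *MYCN*, with the same coverage in every library, could not be called. *MLXIP* was lower for H3K4me1 after siKDM6B33, as were 10.2% of all genes, at 14.2% and 12.4% against 20.4% and 14.8% in siCtrl.

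Of 22 partners and cofactors of MYC and MAX, 14 were higher and 2 lower for H3K4me1 after siKDM6B33, against 48.0% and 10.2% of all genes. Of the 14470 genes with an island, 9675 were higher and 2051 lower. Their median difference was 4.31 percentage points, against 1.20 over all genes and 3.94 over genes with an island, which 20 of the 22 had. *KAT5*, an acetyltransferase recruited by MYC, was at 0% and 0% in siCtrl and 35.5% and 33.3% after siKDM6B33. *USF2*, another E-box factor, was at 13.0% and 13.0% against 42.8% and 41.5%, and *MYCBP* at 0% and 0% against 20.1% and 27.9%. After GSK-J4, 4 were higher and 0 lower for H3K4me1, against 11.4% and 8.65% of all genes. Among them *BIN1*, which encodes a MYC-interacting adaptor protein, was at 40.1% and 35.8% in DMSO and 46.7% and 47.9% after GSK-J4. For H3K27me3 in the knockdown, 0 of 22 were higher and 0 lower, against 11.1% and 3.63% of all genes. In the compound experiment, where 5.96% of all genes were higher and 4.49% lower, 1 was higher, again *BIN1*, at 20.7% and 15.6% against 13.9% and 9.34% in DMSO, and 1 was lower, *SIN3A*, at 3.01% and 0% against 6.01% and 5.82%.

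Of 20 known MYC target genes, 18 were higher and 1 lower for H3K4me1 after siKDM6B33, against 48.0% and 10.2% of all genes. Among the 14470 genes with an island, 9675 were higher and 2051 lower. Their median difference was 12.7 percentage points, against 1.20 over all genes and 3.94 over genes with an island, which all 20 had. *NOP56*, a ribosome biogenesis gene, was at 0% and 0% in siCtrl and 27.9% and 41.9% after siKDM6B33. *ENO1*, a glycolytic enzyme, was at 0% and 0% against 27.8% and 23.0%. After GSK-J4, 2 were higher and 5 lower for H3K4me1, against 11.4% and 8.65% of all genes. *PPAN* was lower, at 45.2% and 43.7% in DMSO against 24.2% and 29.6%, and *CDK4*, a cell cycle kinase, was higher, at 38.5% and 28.6% against 42.7% and 44.9%. H3K27me3 was higher for 0 and lower for 2 of 20 after siKDM6B33, against 11.1% and 3.63% of all genes. *CDK4* was at 35.0% and 39.9% in siCtrl and 29.3% and 27.2% after siKDM6B33, and *NPM1* at 7.19% and 7.19% against 6.30% and 6.74%. It was higher for 3 and lower for 1 after GSK-J4, against 5.96% and 4.49% of all genes. *PTMA* was higher, at 18.8% and 23.3% in DMSO against 30.8% and 24.8%, and so was *NPM1*, at 7.64% and 7.64% against 10.8% and 9.43%. *ODC1*, an enzyme of polyamine synthesis, was lower, at 19.7% and 31.0% in DMSO against 18.3% and 13.4%.

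The genes with coverage most like that of *MYC* over both marks and all 16 libraries were *SFRP2*, *GDF6* and *CHRD*, which encode secreted regulators of WNT and BMP signalling. Their mean absolute differences from *MYC* were 7.67, 7.96 and 8.19 percentage points. H3K27me3 covered 28.1% to 66.8% of the *SFRP2* window, 31.2% to 67.3% of that of *GDF6* and 39.1% to 69.7% of that of *CHRD* over the 8 libraries. *WDR43*, *ZNF175* and *EHD3* were most like *MYCL*, at 0.564, 0.580 and 0.630 percentage points. The smaller distances of the *MYCL* set go with values at 0 in most libraries.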

How the data were processed

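The authors trimmed reads with Trim Galore, aligned them to hg19 with BWA 0.7.12, removed duplicates with Picard 1.65, and kept unique pairs of 150 to 2000 bp with SAMtools 1.3.1. The authors called islands with SICER 1.1 (200-bp windows, 600-bp gaps), whose deposited score sums over windows, and narrow peaks with MACS2 at q 0.05, each library by itself. The deposited peaks give a fold (ratio) over local background, −log10 p and −log10 q. The spike-in scaling and reads used by the authors were not used here.

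Coverage of each protein-coding gene with 10 kb each side (GENCODE 44 on GRCh37) was computed here (SciPy 1.17.1, pandas 2.3.3 and NumPy 2.4.6 under Python 3.11.15). Figures used matplotlib 3.10.9. Summit tags and the genome background were solved from fold and −log10 p, and were tested on simulated peaks. Groups came from sample titles. The exact permutation test of group means was two-sided, and samples were not paired: deviations of same-numbered libraries correlated at -0.00093 and 0.082 for H3K27me3 and 0.012 and -0.058 for H3K4me1 (knockdown, compound). Named genes are the 10 members, *MYCN*, up to 3 listed genes per comparison with the largest difference, and the 3 most like *MYC* and *MYCL*. The members and gene lists were chosen with earlier results of these data known. 1 listed gene that this rule names is not reported here.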

Additional observations from a re-analysis of the deposited data

How the results depend on the processing

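Island lists hold no reads, so coverage changes with depth and with the caller, and with 2 libraries a group the exact permutation test cannot go below p = 0.333. Of 225 alternative values for the 25 gene-level differences, 175 moved by less than 1 SD, 45 moved by more and 5 turned a difference between groups that did not overlap. For each of the 25, the value under the replicate block, which pairs libraries by number, equals the main value by construction and counts among the 175. Leaving out a library cannot turn a difference between groups that do not overlap. *MYC* had H3K27me3 in 8 libraries under every alternative. *MYCL* had it in 4, but in 2 with at least 10% of the window covered, in 2 at equal covered length and in 1 by narrow peaks kept at −log10 q of 2 or more. At equal covered length H3K27me3 after siKDM6B33 was higher for 0 and lower for 2 genes (*MYCL* at -8.57), and lower for 1 after GSK-J4, and H3K4me1 was lower for 2 after siKDM6B33. By those narrow peaks H3K27me3 was higher for 0 and lower for 1 gene after siKDM6B33. After GSK-J4 it was higher for 3 (*MAX*, *MXD1* and *MLX*) and lower for 0. H3K4me1 by those peaks was lower for 2 after GSK-J4. Its differences turned to -0.0888 (*MAX*) and 0.556 (*MNT*) after siKDM6B33 and to 0.224 (*MNT*) and -0.0701 (*MGA*) after GSK-J4. With a gap of at least 1 percentage point, 1 gene was lower for H3K27me3 and 1 higher for H3K4me1 after GSK-J4. Within 1 kb of the start, an alternative chosen after seeing the data, H3K27me3 was higher for 0 after siKDM6B33 and lower for 0 after GSK-J4, and H3K4me1 was higher for 4 and lower for 0 after siKDM6B33 and higher for 0 after GSK-J4. The cause of these shifts was not tested. Leaving out 1 library at a time can only keep or add calls of groups that do not overlap, so it cannot check the calls made. For H3K27me3 it gave 1 higher and 0 to 1 lower after siKDM6B33 and 0 to 2 higher and 2 to 3 lower after GSK-J4. For H3K4me1 it gave 7 to 9 higher and 1 to 2 lower after siKDM6B33 and 2 to 6 higher and 1 to 3 lower after GSK-J4. *MYC* became lower for H3K27me3 without siKDM6B33 replicate 2 or siCtrl replicate 2. For H3K27me3 after GSK-J4, *MNT* became higher without GSK-J4 replicate 1, *MXD4* without GSK-J4 replicate 2, and *MNT* and *MGA* without DMSO replicate 2, while *MXD4* became lower without GSK-J4 replicate 1. For H3K4me1, *MXD4* became lower without siKDM6B33 replicate 1, *MYC* and *MXD3* became lower without GSK-J4 replicate 1, and 6 genes were higher without GSK-J4 replicate 2. The labels share replicate numbers, which did not pair the libraries. With the replicate block, H3K27me3 was higher and lower for 1 and 0 genes after siKDM6B33 and for 1 and 2 after GSK-J4, and H3K4me1 for 8 and 1 and for 3 and 1.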
